A study of Homo sapiens with 2 samples.

Results

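The genes described here are NPAS4, CPLX2, HTR5A, XKR7 and MIR7-3HG, 5 genes grouped here as neuronal or neuroendocrine. They carried some of the highest-scoring summits in a ChIP-seq peak list from a colon cancer cell line. They were chosen by the scores of that list, from the genes with a summit inside the gene or within 1 kb of either end. They are 5 of 3626 genes that met the distance criterion, among 59679 annotated genes on chromosomes 1 to 22, X and Y. Their scores and positions are therefore given as a description, with no test.

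The antibody was directed against WSTF, the protein encoded by BAZ1B, a bromodomain protein that works with the ISWI family of chromatin remodelling ATPases. SW620 is an established human cell line of colorectal origin. Both samples of the series come from SW620. Their titles differ in the suffix IP, and no replicate is labelled for either. The design text describes cells with more WSTF than normal, whereas the series title speaks of a knockdown, so the WSTF level of the cells is not settled by the labels. The data are 1 list of 2697 summits, each the single base of highest signal in a peak. Each summit carries a score, taken here to be the −log10 q-value that MACS2 gave the peak. The median score was 3.72, and 42 summits (1.56%) reached 10. The list holds no read counts, so the depth is unknown. There are no replicates, hence no error on any score, and no condition to compare with another.

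NPAS4, CPLX2, HTR5A, XKR7 and MIR7-3HG differ in what they make. NPAS4 encodes a bHLH-PAS transcription factor that neurons switch on after depolarisation. CPLX2 encodes complexin 2, a small protein that binds the SNARE complex and tunes calcium-triggered vesicle fusion. HTR5A encodes a G protein-coupled serotonin receptor found mainly in the brain. XKR7 encodes a member of the XK-related membrane protein family, and no neuronal role of it is shown by these data. MIR7-3HG is the host transcript of a precursor of miR-7, a microRNA abundant in neuroendocrine cells. Outside the nervous system many neuronal genes are kept silent by REST, a zinc finger repressor. REST binds a DNA element called RE1 and recruits the CoREST and SIN3 co-repressors with their histone deacetylases and the demethylase KDM1A. NPAS4 has itself been described as a REST-regulated gene.

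The HTR5A sequence is shown first because its summit was the only one of the 5 that lay within a promoter window of the RefSeq promoter table (GRCh38.p14, 250 bases before to 50 bases after an annotated start). The window, chr7:155070074-155070373 on the plus strand, is printed 5′ to 3′. Capitals mark the stretches that match the RE1 core, read here as CAGCACC, then 2 bases of any kind, then GGACAGC.

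HTR5A: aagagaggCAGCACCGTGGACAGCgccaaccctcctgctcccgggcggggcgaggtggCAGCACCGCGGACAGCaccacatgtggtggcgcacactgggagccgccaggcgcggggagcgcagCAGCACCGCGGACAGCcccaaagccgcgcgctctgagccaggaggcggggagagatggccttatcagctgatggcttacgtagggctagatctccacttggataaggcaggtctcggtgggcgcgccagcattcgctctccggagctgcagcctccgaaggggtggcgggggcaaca

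The HTR5A window held 3 exact matches of this core, all on the strand of the gene. The first ran from 155070082 to 155070097, the second from 155070132 to 155070147 and the third from 155070197 to 155070212. Relative to the annotated start they began 242, 192 and 127 bp upstream. The HTR5A summit, at position 155070106 on chromosome 7, fell between the first and the second match. It was 9 bp from the end of the first match, 26 bp from the second and 91 bp from the third. The first match is shown beside the others because they differ in the pair of bases between the half-sites.

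First match: CAGCACCGTGGACAGC

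The second and the third match: CAGCACCGCGGACAGC

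**Figure D1:**
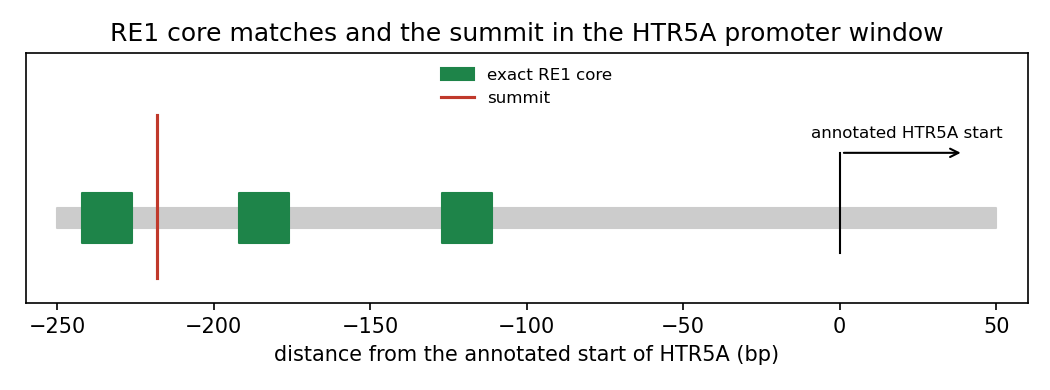
Map of the HTR5A promoter window, with distance from the annotated start in bp on the horizontal axis, the 3 exact RE1 core matches as green boxes and the summit as a red line. The summit, 218 bp upstream of the start, lies between the first and the second match.

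Exact matches of the core were rare in promoters. Of 35116 promoter windows searched on both strands, 15 (0.0427%) held one, and allowing 1 mismatch raised this to 41 (0.117%). The search for the core was added after the HTR5A sequence had been seen, so its match there is a description. Of the half-sites listed at the outset, GGACAGCG was present without a mismatch in HTR5A, as in 1.63% of all windows. TTCAGCACC was not, its closest match in HTR5A having 2 mismatches, and 0.376% of all windows held it exactly. These half-sites overlap the core.

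The other members gave no such match in the windows that were searched. The closest stretch to the core had 4 mismatches in NPAS4, 4 in CPLX2 and 6 in MIR7-3HG. Their summits lay outside these windows, so the sequence under those summits was not examined. XKR7 had no entry in the promoter table. A match names letters only, and binding of REST was not measured in these data.

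The cyclic AMP response element is a DNA site through which neuronal activity can act on genes, and the E-box CACGTG is a site of bHLH factors. No exact cyclic AMP response element (TGACGTCA) was found in the 4 members with a window, which 1.85% of all windows held. NPAS4 had a stretch with 1 mismatch, as 11.8% of all windows had a stretch with at most that. No member window held an exact CACGTG, against 7.26% of all windows. GGGCGG, the GC box, was present in NPAS4 and HTR5A and in 44.95% of all windows. The GC content was 70.0% and 71.3% in the overlapping NPAS4 windows and 68.7% in HTR5A, against 59.0% in CPLX2 and 56.3% in MIR7-3HG. The median was 58.7% over all windows and 70.7% over the 1349 windows that held a summit. In GC content NPAS4 and HTR5A were thus near the summit-bearing windows, of which the HTR5A window is itself 1. CPLX2 and MIR7-3HG lay near the middle of all windows. The CpG count was 25 in both NPAS4 windows and 26 in HTR5A. These lie between the medians of all windows (14) and of summit-bearing windows (33). It was 8 in CPLX2 and 9 in MIR7-3HG, below both medians.

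Each of these genes held 1 summit, and that summit was the highest-scoring on its chromosome. NPAS4 came first of 264 summits on chromosome 11, CPLX2 first of 106 on chromosome 5, HTR5A first of 155 on chromosome 7, XKR7 first of 145 on chromosome 20 and MIR7-3HG first of 171 on chromosome 19. Over all summits NPAS4 ranked 2, XKR7 4, MIR7-3HG 5, CPLX2 8 and HTR5A 9. The score chose the genes, so these ranks restate the choice. For reference, 13.8% of 20037 protein-coding genes (2765, exact 95% interval 13.3 to 14.3) and 4.01% of 18303 lncRNA genes had a summit by the same distance criterion. A summit of score 10 or more was present at 0.220% of protein-coding genes.

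**Figure D2:**
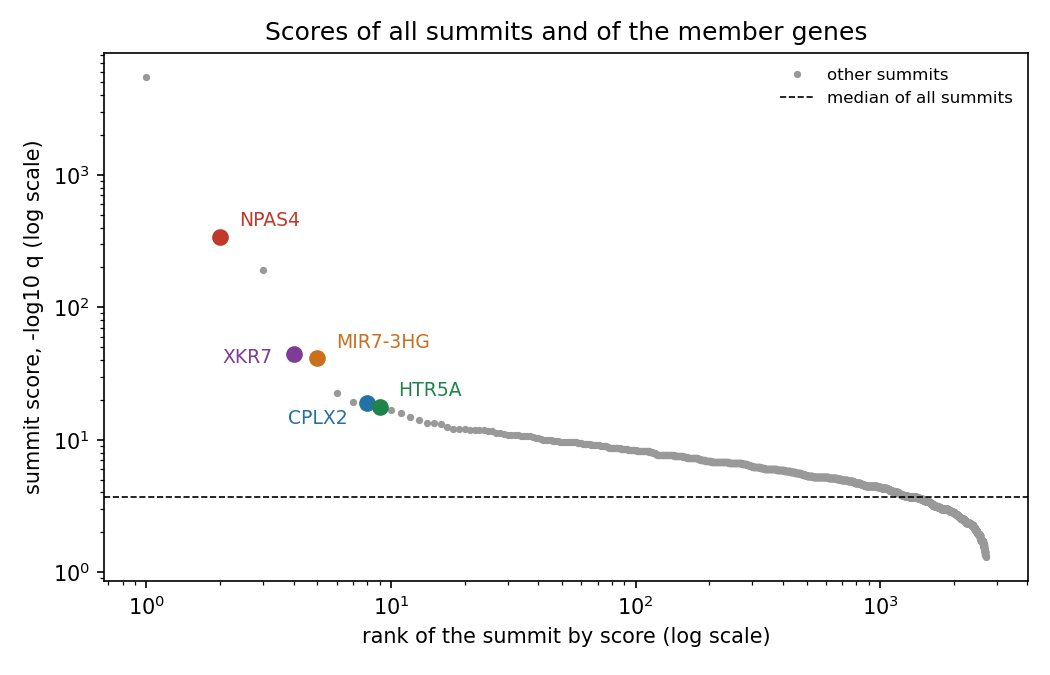
Score of each of the 2697 summits on the −log10 q scale (log axis) against its rank (log axis), with the 5 genes coloured and the median as a dashed line. NPAS4 (342) stands well above XKR7 (44.2) and MIR7-3HG (41.5), and CPLX2 (18.8) and HTR5A (17.8) lie where the curve joins the other summits.

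The score of the NPAS4 summit, 342, was the second highest in the list. The transcription factor gene spans 66409158 to 66426707 on chromosome 11 by its outer limits, and the summit lay inside it at 66421794. Starts annotated in the promoter table stood at 66421004 and 66421035, and the summit lay 790 and 759 bp downstream of them. It was 12636 bp from the outer lower end and 4913 bp from the upper end, so it was not at an outer gene boundary. The summit next above it, with a score of 5479, lay in the immunoglobulin heavy chain locus IGH. The next below, with 190, lay 36 bp outside HDX, a homeobox gene on the X chromosome. No neighbour in rank was close to NPAS4 in score.

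XKR7 and MIR7-3HG formed a pair in score, at 44.2 and 41.5, and no other summit fell between 22.4 and 190. XKR7 spans 31968151 to 32003387 on chromosome 20, and its summit, at 31968569, lay 418 bp inside the lower end of the gene. MIR7-3HG is a lncRNA gene of 3452 bp at 4769105 to 4772556 on chromosome 19. Its summit, at 4769702, lay 597 bp downstream of the annotated start. The miR-7 precursor MIR7-3, at 4770670 to 4770779, began 968 bp farther downstream. The summit thus lay between the start of the host gene and the hairpin. The mature product is printed because the same microRNA comes from other loci that can be compared with this one. RefSeq (GRCh38.p14) lists it with the same sequence at MIR7-3 and at MIR7-1. MIR7-2 was not compared, since only another mature product was read for it. Capitals mark the seed, bases 2 to 8.

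hsa-miR-7-5p: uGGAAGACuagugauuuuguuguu

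CPLX2 and HTR5A closed the group, with scores of 18.8 and 17.8. CPLX2 spans 175796533 to 175884021 on chromosome 5, and its summit, at 175797025, lay 492 bp downstream of the annotated start. The gene is 87489 bp long, and the rest of it held no further summit. HTR5A spans 155070324 to 155087392 on chromosome 7, and its summit lay 218 bp upstream of the start. This was the only summit of the 5 outside the limits of its gene, and the only one upstream among the 4 genes whose start was in the promoter table. It lay within HTR5A-AS1, a lncRNA gene that overlaps the receptor gene, so in this list the summit belongs to both. The summits ranked directly above this pair lay in VRK3, a kinase gene (22.4), and RAB22A, an endosomal GTPase gene (19.2). The summit directly below HTR5A lay in DCUN1D2, with a score of 16.9. The step from the lowest member to the next summit was thus small.

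Most summits within 1 kb of an annotated start lay closer to it than those of NPAS4, CPLX2 and MIR7-3HG did. Of the 2619 summits on chromosomes with promoter windows, 1955 (74.6%) lay within 1 kb of an annotated start, with a median offset of 2 bp upstream and quartiles of −126 and 128 bp. Among these, 136 (6.96%, 95% interval 5.87 to 8.18) lay 400 bp or more into the gene. NPAS4, CPLX2 and MIR7-3HG were among the 136. Of the 31 summits within 1 kb of a start that scored 10 or more, 7 (22.6%) lay 400 bp or more into the gene. These 3 genes supplied 3 of the 7. They were chosen by score and the 400 bp line was not set at the outset, so the 22.6% partly restates the choice. A difference from the 6.96% was not tested. XKR7 was not placed relative to a start, since its strand and start were not in the table.

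**Figure D3:**
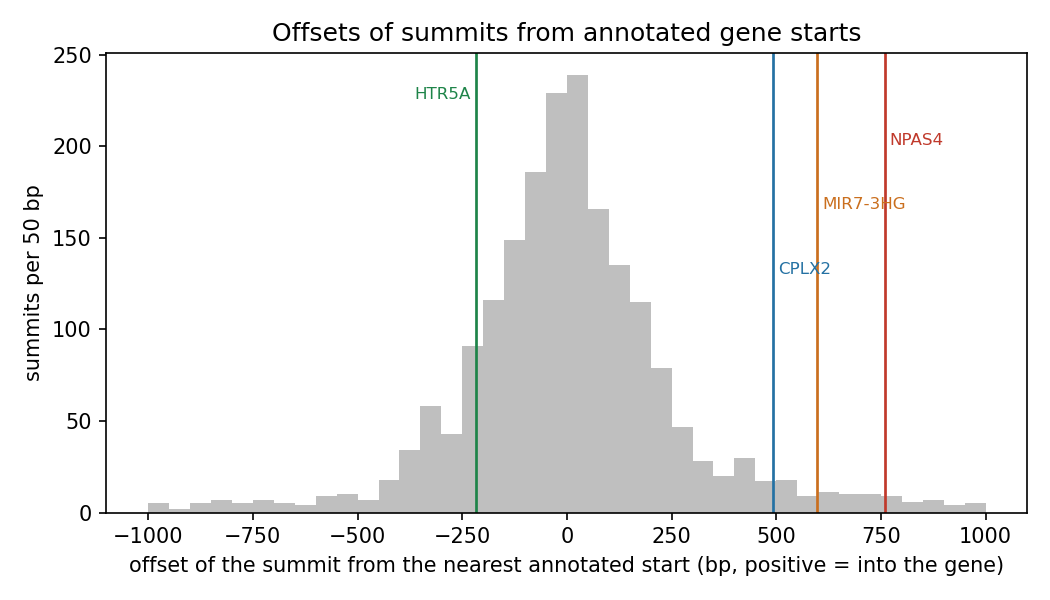
Histogram of the offset of summits from the nearest annotated start, in bp with positive values into the gene, in steps of 50 bp. Coloured lines mark HTR5A (218 bp upstream), CPLX2 (492 bp into the gene), MIR7-3HG (597 bp) and NPAS4 (759 bp from the nearer start).

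No other summit lay within 10 kb of any of the 5. How many of all summits also had none within 10 kb was not counted. Whether this sets these genes apart is therefore not known. The nearest other summit was 16591 bp away for XKR7, at PDRG1, with a score of 5.54. It was 45357 bp away for NPAS4, at PELI3 (3.72), 46050 bp for MIR7-3HG, at DPP9 (4.18), and 66689 bp for HTR5A, at PAXIP1 (3.74). For CPLX2 it was 740484 bp away, at RNF44 (1.95). The summits next to these genes thus scored between 1.95 and 5.54, beside a list median of 3.72 and an upper quartile of 5.04. Only the one at PDRG1 was above that quartile.

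The wider neighbourhoods differed in density. Within 1 Mb of the summit NPAS4 had 32 other summits, XKR7 had 8, MIR7-3HG had 8, HTR5A had 4 and CPLX2 had 1. The highest score among the 32 around NPAS4 was 11.9, at MUS81, a DNA repair endonuclease gene 561333 bp away, and their median was 4.52. Around XKR7 the highest was 6.41, at HM13-AS1, and around MIR7-3HG it was 4.44, beside TICAM1, an innate immune adaptor gene. Around HTR5A it was 4.12. NPAS4 lay in a stretch rich in summits and CPLX2 in a nearly empty one. Each of the 5 summits being the highest within 1 Mb follows from its rank on the chromosome and so from the choice by score.

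**Figure D4:**
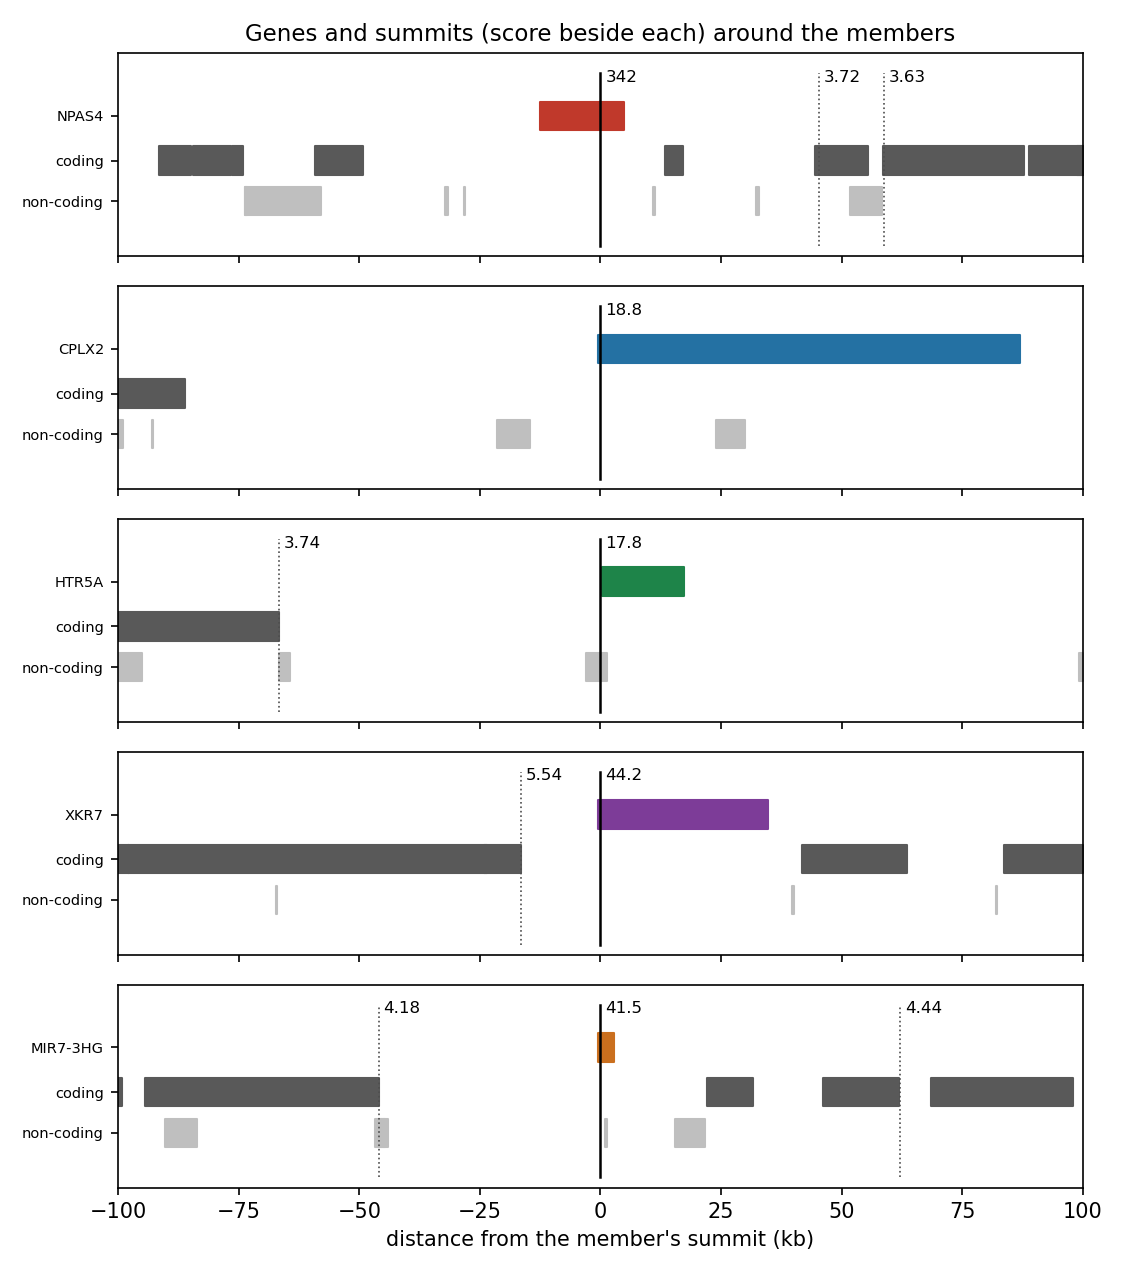
Genes and summits within 100 kb of each of the 5 summits, with distance from the summit in kb. Coloured bars are the named gene, dark bars other protein-coding genes and pale bars non-coding genes; solid lines mark the gene's own summit and dotted lines other summits, each with its score. The dotted lines carry scores between 3.63 and 5.54, and CPLX2 has none.

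Of the 10 protein-coding genes adjacent to these loci, 4 had a summit and 6 had none, where 13.8% of all protein-coding genes had one. Beside NPAS4, neither MRPL11, a mitochondrial ribosomal protein gene 13281 bp away, nor SLC29A2, a nucleoside transporter gene 49348 bp away, had one. CPLX2 lay between HRH2, a histamine receptor gene 86269 bp away, and THOC3, a gene of the mRNA export complex THO 162506 bp away, and neither had a summit. FEM1A, 22032 bp from the MIR7-3HG summit, and CCM2L, 41869 bp from that of XKR7, had none either. PDRG1 beside XKR7, PAXIP1 (3.74) and INSIG1 (3.59) beside HTR5A and DPP9 beside MIR7-3HG did carry one.

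Relatives of these genes were examined to see whether the summits extended to their families. Among 16 bHLH-PAS genes 6 had a summit, or 5 of 15 without NPAS4, beside the 13.8% of all protein-coding genes. They were the circadian factor genes BMAL1 (5.75) and BMAL2 (4.16), the hypoxia factor gene HIF1A (5.60), AHRR (3.76), a repressor of the aryl hydrocarbon receptor, and NPAS1 (1.96). The highest summits of AHRR and NPAS1 lay deep inside the gene, 52090 and 9873 bp from its nearest end. NPAS2 and NPAS3 had none. Activity-regulated immediate early genes, which are induced with NPAS4 in stimulated neurons but also by growth factors in other cells, had a summit at 5 of 20. The highest were the nuclear receptor gene NR4A1 (8.54, 8240 bp from the nearest gene end), the AP-1 subunit gene JUNB (5.31), MAFF (4.06) and EGR2 (3.25).

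The families of CPLX2 and HTR5A had shares whose intervals hold the 13.8% of all protein-coding genes. These shares count CPLX2 and HTR5A in, although both were chosen for their summits. Complexins and the vesicle fusion machinery had a summit at 2 of 21 genes (9.52%, exact 95% interval 1.17 to 30.4), or 1 of 20 without CPLX2. The other was the plasma membrane SNARE gene STX1A (4.63), and CPLX1, CPLX3 and CPLX4 had none. Serotonin receptors and the genes of serotonin synthesis, transport and breakdown had a summit at 1 of 22 (4.55%, exact 95% interval 0.115 to 22.8). That 1 was HTR5A itself, so the count without it was 0 of 21. None of the other 16 receptor genes on the list had one within 1 kb.

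The XK family had a summit at 2 of 9 genes, or 1 of 8 without XKR7, beside the 13.8% of all protein-coding genes. These were XKR7 and XKR8 (3.72), which encodes a phospholipid scramblase. XKR7 was chosen for its summit, so the 2 of 9 partly restates the choice. The list of miR-7 genes had a summit at 3 of 6 matched genes, or 2 of 5 without MIR7-3HG. Both counts include MIR7-3, for which the summit of MIR7-3HG was also counted, since the precursor lies within 1 kb of it. HNRNPK, whose intron holds MIR7-1, had a summit scoring 3.13, 2 bp from a gene end. MIR7-1 and MIR7-2 themselves had none within 1 kb, nor had OIP5-AS1, a lncRNA gene. The circular miR-7 sponge CDR1-AS was not matched to the gene table and has no value here.

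Neuroendocrine marker genes had a summit at 2 of 22 (9.09%, exact 95% interval 1.12 to 29.2), an interval that holds the 13.8% of all protein-coding genes. These were ENO2, the neuronal enolase gene (4.90), and CHGB, a secretory granule protein gene (2.91). Markers without one included CHGA, SYP, INSM1 and NEUROD1. The colon epithelial markers CDX1, CDX2, VIL1, EPCAM, KRT20, KRT8, KRT18, CDH17, GPA33, HNF4A and LGR5 had none of 11 (exact 95% interval to 28.5%). The list holds no expression values, so neither the colon origin of the line nor the expression of the 5 genes could be checked from it.

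The REST context was described from lists of its co-repressors and of its textbook targets. REST and its co-repressors had a summit at 7 of 20 genes (35.0%, exact 95% interval 15.4 to 59.2), beside 13.8% of all protein-coding genes. The median score at the 7 was 4.26, beside 3.74 over all protein-coding genes with a summit. They were the small phosphatase genes CTDSP2 (5.01) and CTDSP1 (4.67), the remodelling ATPase gene SMARCA4 (4.44), the scaffold gene SIN3A (4.26), the deacetylase gene HDAC2 (3.63), the demethylase gene KDM1A (3.13) and HMG20B (3.08), a CoREST-associated protein gene. REST itself and RCOR1, which encodes CoREST, had none. These are summits at the genes of the silencing machinery and say nothing of where its proteins sat.

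Textbook REST target genes had a summit at 2 of 28 (7.14%, exact 95% interval 0.877 to 23.5), and the 13.8% of all protein-coding genes lies inside this interval. These were the muscarinic receptor gene CHRM4 (3.53) and the NMDA receptor subunit gene GRIN1 (1.73), both at or below the median score of the list. Genes such as STMN2, SCN2A, SYN1, SNAP25 and BDNF had none within 1 kb. Of the 20 target genes with a promoter window, 4 held the RE1 core with at most 1 mismatch, and 0 of those 4 had a summit.

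Promoters with an exact core belonged to 13 genes, among them GAD2, which encodes a GABA-synthesising enzyme, the glutamate receptor subunit gene GRIA2, the synaptic vesicle gene RPH3A and the neuropeptide gene UCN. HTR5A and the lncRNA gene LOC124903896 on chromosome 17 had a summit within 1 kb, that is 2 of 13 (15.4%, exact 95% interval 1.92 to 45.4). At LOC124903896 the summit scored 5.49 and lay 179 bp from the core, against 9 bp at HTR5A. For the remaining 11 genes the nearest summit was between 74967 and 26283723 bp from the core. At the 26 genes whose closest stretch had 1 mismatch there was no summit (exact 95% interval to 13.2%). Genes whose closest stretch had 2, 3, 4, 5 or 6 mismatches had a summit at 13.0%, 13.1%, 13.7%, 10.2% and 3.28%. These shares lie within the intervals of the genes with an exact core and of those with 1 mismatch, except 13.7%, which is just above the latter. Of the 1084 summits that lay in a promoter window, HTR5A's was the 1 whose window held an exact core, and the 11 whose windows held a core with 2 mismatches scored at most 6.01.

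**Figure D5:**
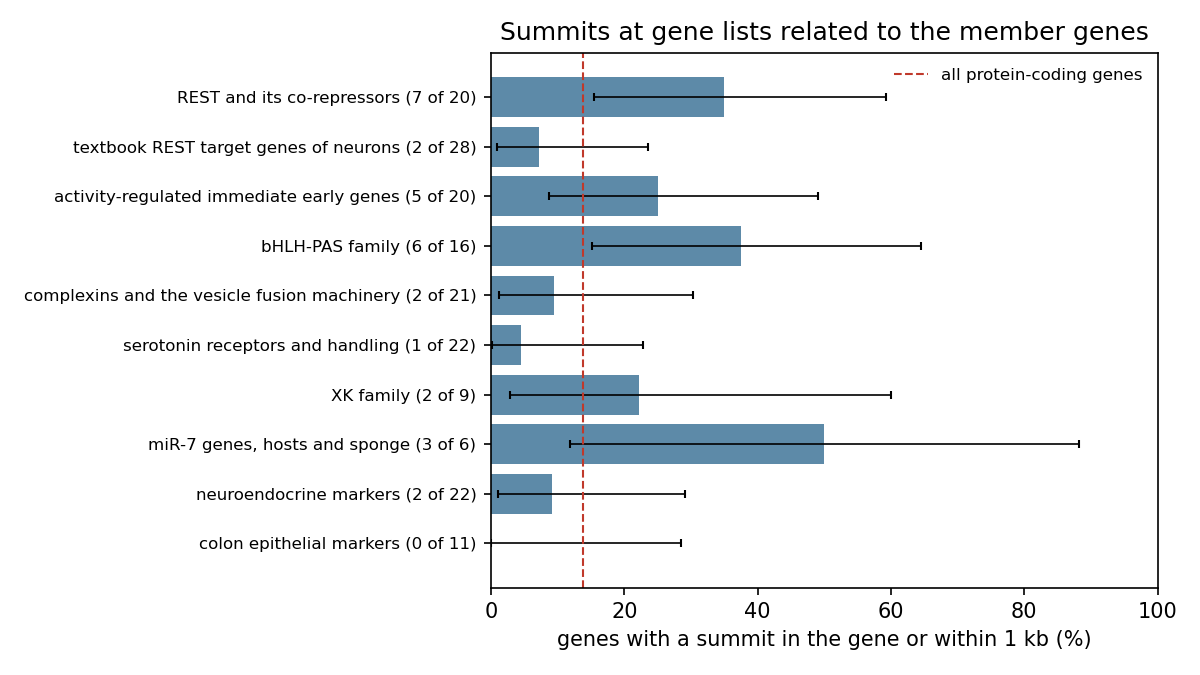
Percentage of each list's genes that had a summit inside them or up to 1 kb away, with exact 95% intervals that cover counting error only and the 13.8% of all protein-coding genes as a dashed line. Textbook REST targets (2 of 28), serotonin genes (1 of 22), vesicle fusion genes (2 of 21), neuroendocrine markers (2 of 22) and colon epithelial markers lie to the left of the line. REST with its co-repressors (7 of 20), bHLH-PAS (6 of 16), immediate early (5 of 20), XK (2 of 9) and miR-7 genes (3 of 6) lie to the right. The lists with NPAS4, CPLX2, HTR5A, XKR7 or MIR7-3HG count them in, and the miR-7 list counts 1 summit at both MIR7-3HG and MIR7-3.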

How the data were processed

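The input was 1 list of peak summits for the series. Trimmomatic 0.39, Bowtie2 2.4.4, MACS2 2.2.7.1 and the hg38 build are named in the submitters' processing notes; per the labels' design text, peaks were called against input DNA. Pooling of replicates is not given in the sources used. The deposited scores were read as −log10 q-values, since the lowest, 1.31, lies just above 1.30, the −log10 of 0.05. They are the authors' own and were used only within the list.

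Summits were assigned to genes of the RefSeq table (GRCh38.p14) with Python 3.11.15 and pandas 2.3.3 when they lay in the gene or within 1 kb. Of 168 genes on the 10 lists 167 matched. Neighbours, ranks and motif matches (both strands) were counted directly; starts and strands came from the RefSeq promoter table, whose windows on chromosome 8 were not used here. Shares carry exact Clopper-Pearson 95% intervals (scipy 1.17.1). The code was tested on simulated data. The members and lists were chosen with earlier results of these data known. Genes named are the members, their neighbours on the chromosome and in rank, up to 4 summit-bearing genes per list by score, and direct relatives; further genes on the lists and those with an RE1 core were added after their values were seen. No test between samples was possible.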

Additional observations from a re-analysis of the deposited data

How the results depend on the processing

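The number of the 5 genes with a summit was 4 without any margin around the gene, where HTR5A drops out, and 5 with margins of 500 bp, 5 kb and 10 kb and with summits at or above the median score alone. Over all protein-coding genes, those with a summit ran from 7.32% (upper-scoring summits) and 8.12% (no margin) to 17.75% (10 kb). Without a margin the counts became 3 for REST and its co-repressors, 0 for textbook REST targets, 0 for serotonin genes, 1 for miR-7 genes and 0 for neuroendocrine markers; with 500 bp the REST targets had 1. With 5 kb and 10 kb the immediate early genes had 8 and 11 and the serotonin genes 2 and 3. With upper-scoring summits the co-repressors had 4, the REST targets 0, the immediate early genes 3 and the neuroendocrine markers 1. Of 69 alternative values, 41 were near the main one, meaning within 1.5 times for a count, inside the exact 95% interval for a share and unchanged for a rank. Among summits within 1 kb of a protein-coding gene end, XKR7 ranked 2, CPLX2 4 and HTR5A 5; NPAS4 and MIR7-3HG are not in that set. The left RE1 half-site was in 7.68% of windows with 1 mismatch and in 0.202% at protein-coding genes with a summit; the right one was in 28.7% and 2.34%. The RE1 core, a search added after seeing the data, was in 41 windows with 1 mismatch and 284 with 2. Depth could not be assessed, and the absence of a summit does not show absence of WSTF. No paired analysis was possible because the 2 samples share 1 list and carry no replicate numbers.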
